A study of Bos taurus with 15 samples.

Results

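The genes described here take fatty acids from circulating lipoproteins into adipose tissue. They were chosen by name, as a list of 10 genes: the lipase *LPL* with its carrier *GPIHBP1* and inhibitor *ANGPTL4*, the receptors *VLDLR* and *CD36*, the transporter *SLC27A1*, the acyl-CoA synthetase *ACSL1* and the binding proteins *FABP3*, *FABP4* and *FABP5*. Of these, 9 were found by symbol in all 6 deposited comparison tables, out of 13896 genes. *GPIHBP1* was not analysed here.

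RNA was sequenced from subcutaneous fat of the dewlap of primiparous Prim Holstein cows, in 15 libraries that formed 5 groups of 3. The study fasted the cows before the biopsies. The group at -4 weeks peripartum (wkpp) was sampled before the diets began, and the others came from cows on a low energy (LE) or a high energy (HE) diet at 1 wkpp and at 16 wkpp. The cows sequenced were those with the most extreme energy balance at 1 wkpp, severe in LE and moderate in HE, so diet and the choice of animals cannot be told apart. The same 3 libraries at -4 wkpp were set against both diets. The study describes biopsies of each animal at each time, but the labels do not tie libraries to animals, and the p-values measure the spread between these libraries.

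In fed animals, LPL is made by adipocytes, carried by GPIHBP1 to the capillary lumen, and there releases fatty acids from the triglycerides of chylomicrons and very low density lipoproteins. ANGPTL4, which is induced by fasting and by fatty acids, inactivates the lipase. The fatty acids enter the cell with the help of CD36 and SLC27A1, are bound by FABPs in the cytosol, and are joined to coenzyme A by ACSL1 before they are stored. Around calving, dairy cows draw on their fat, and milk fat synthesis takes up circulating triglycerides in the mammary gland.

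The deposited tables hold, for each gene, the mean normalised count of the 6 libraries of a comparison, a log2 fold change (first group over second, shrunken towards 0), its standard error (SE) and p-values, counted separately over exons and over the whole gene. They hold no value of a single library. The level of each gene in each group, called here the derived group mean, was therefore solved from the 6 mean counts. It has no replicate error, and the range given with it covers only the choice of scale between tables. Levels compare groups for 1 gene and not genes with each other, since they are not per length. A gene was called changed when the adjusted p-value (DESeq2, Benjamini-Hochberg over all genes of the table) lay under 0.01 for exons and for the whole gene and the fold changes had one sign.

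All values are relative to the other genes. The 92 synthetic spike-in RNAs took 2.90% to 5.08% of the summed exonic mean counts at -4 wkpp and in LE, against 47.4% in HE 1 wkpp and 30.2% in HE 16 wkpp. Scaling to the spike-ins would add 3.88 to every exonic log2 ratio of -4 wkpp over HE 1 wkpp, with all 9 genes then positive instead of 4, and the part of this in the results was not tested. In bulk tissue, fewer cells of a type and less RNA per cell cannot be told apart.

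The 2 genes that stood far higher before calving were *LPL* and *ACSL1*, at the first and the last step of the route. The derived exonic mean of *LPL* was 20066 at -4 wkpp, 2874 in LE 1 wkpp, and 701 in HE 1 wkpp (range 451 to 949). At 16 wkpp it was 4289.6 in LE and 1559 in HE (range 1325 to 1791). The level before calving thus lay above all 4 later groups, and both LE groups lay above both HE groups. The whole gene analysis gave the same order, with 20974 at -4 wkpp, 3223 and 4809.7 in LE at 1 and 16 wkpp, and 920.4 and 1834 in HE.

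**Figure D1:**
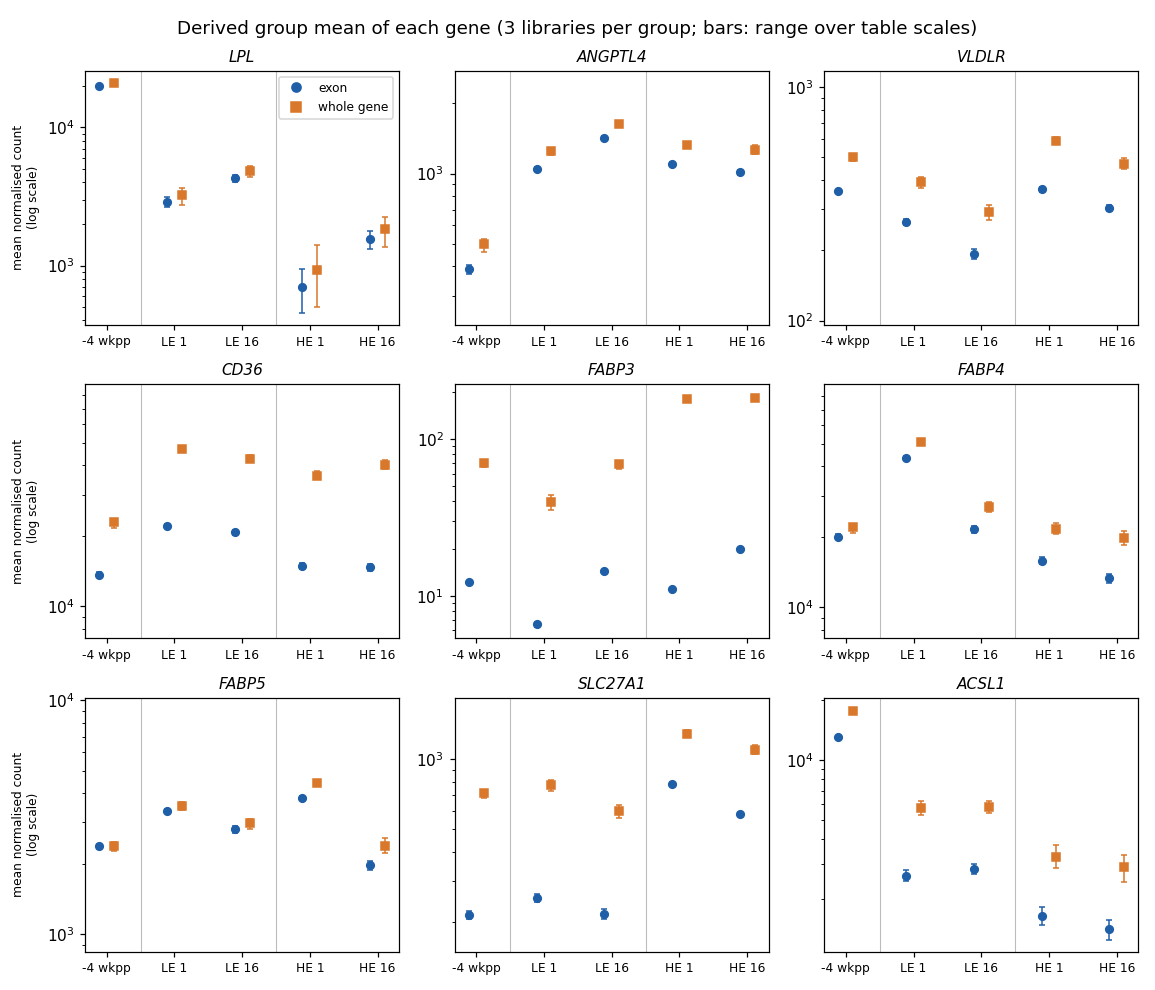
Derived group mean of the 9 genes (mean normalised count, log axis) at -4 wkpp and in LE and HE at 1 and 16 wkpp, from exons (circles) and whole genes (squares), relative to the other genes of the tables. Each point stands for 3 libraries and bars show the range over table scales, not replicate error; exonic *LPL* goes from 20066 at -4 wkpp to 701 in HE 1 wkpp, while *SLC27A1* goes from 215 to 781, a direction that turns when scaled to the spike-ins.

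Between -4 wkpp and HE 1 wkpp, the exonic ratio of the *LPL* means was 28.6-fold, or 4.84 on the log2 scale (range 4.41 to 5.47). The deposited log2 fold change was 4.53 (SE 0.34) with no p-value for exons, and 4.25 (SE 0.35, adjusted p = 1.32e-30, DESeq2) for the whole gene. *LPL* passed the threshold only in the whole gene analysis and was not called.

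Between -4 wkpp and LE 1 wkpp, the 2 measures of *LPL* parted. The exonic means differed 6.98-fold, a log2 ratio of 2.80 (range 2.68 to 2.93), whereas the deposited log2 fold change was 1.26 (SE 0.41) with no p-value. The whole gene value was 1.36 (SE 0.46, adjusted p = 0.0545, DESeq2), so the difference did not pass the test. Deposited fold changes are shrunken: over genes whose means differed at least 2-fold in this comparison, the median deposited value was 0.838 of the log2 ratio, and for *LPL* it was a smaller part. The plot of deposited fold changes against ratios of the means shows *LPL* as the member farthest from the line of equal values there.

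**Figure D2:**
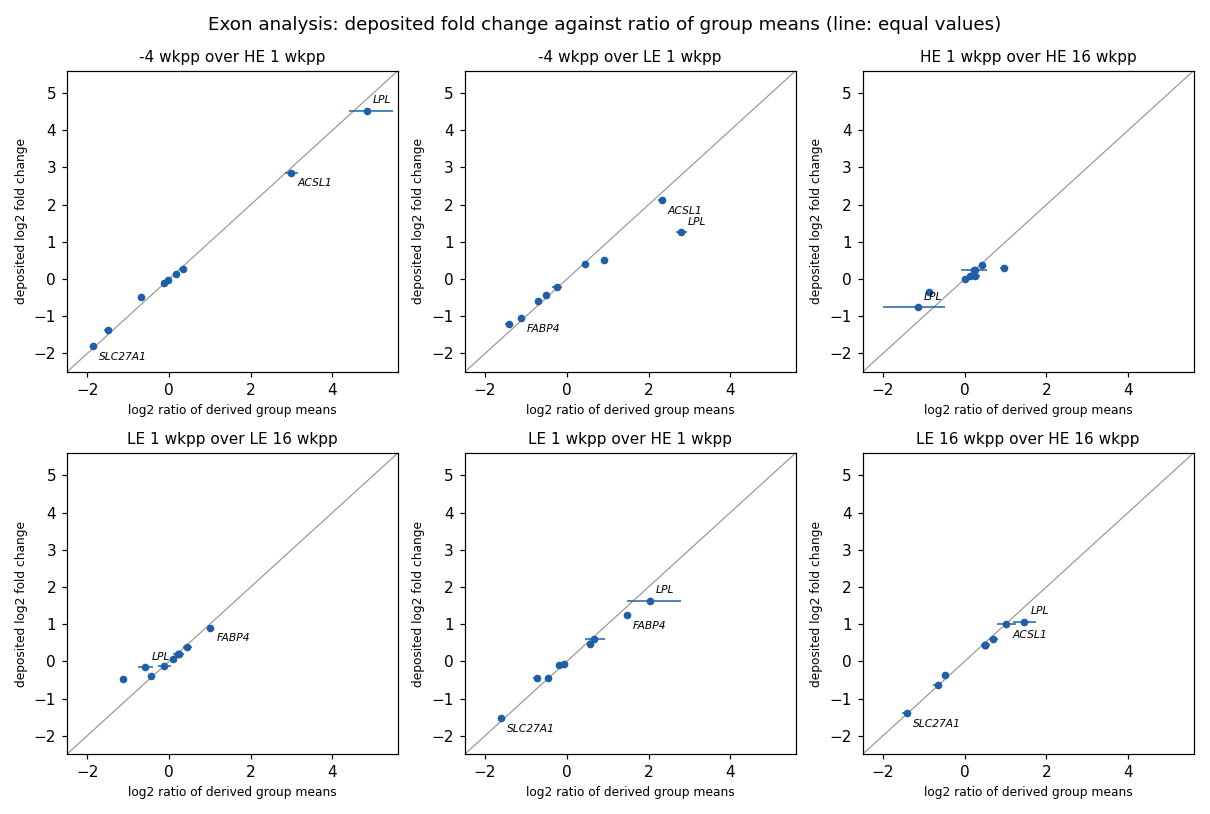
Deposited log2 fold change (vertical axis) against the log2 ratio of the derived group means (horizontal axis) for the 9 genes in the exon analysis of the 6 comparisons, with the line of equal values. Bars show the range over table scales. *LPL* at -4 wkpp over LE 1 wkpp lies at 2.80 on the horizontal and 1.26 on the vertical axis, and *ACSL1* at 2.32 and 2.12.

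The diets were compared at each time point. At 1 wkpp the *LPL* mean was 4.10-fold higher in LE than in HE (log2 ratio 2.04, range 1.48 to 2.79). The deposited log2 fold change was 1.62 in both analyses (SE 0.48 for exons, 0.61 for the whole gene), and neither had a p-value, so this difference has no test. At 16 wkpp it was 1.07 (SE 0.59, adjusted p = 0.165, DESeq2) and did not pass. From 1 to 16 wkpp, *LPL* was at -0.76 in HE (SE 0.35, adjusted p = 0.25, DESeq2) and at -0.16 in LE (SE 0.24, adjusted p = 0.935, DESeq2). Of the 12 entries of *LPL*, 5 had no p-value, against 10 of 108 entries for all 9 genes. DESeq2 by default leaves out the p-value where the count of 1 library is outlying, but single libraries could not be looked at in these tables.

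*ACSL1* had a derived exonic mean of 13059 at -4 wkpp, 2618 and 2832 in LE at 1 and 16 wkpp, and 1645 and 1405 in HE. Its level before calving was 4.99-fold that of LE 1 wkpp and 7.94-fold that of HE 1 wkpp. The deposited log2 fold change over HE 1 wkpp was 2.86 (SE 0.30, adjusted p = 1.31e-19, DESeq2) for exons and 2.35 (adjusted p = 4.3e-10, DESeq2) for the whole gene. Over LE 1 wkpp it was 2.12 (SE 0.24, adjusted p = 1.73e-16, DESeq2) and 1.53 (adjusted p = 7.62e-12, DESeq2). *ACSL1* was thus called higher before calving in both comparisons. It was also higher in LE than in HE at 16 wkpp, by 1.00 (SE 0.21, adjusted p = 2.72e-05, DESeq2) for exons and 0.91 (adjusted p = 0.000231, DESeq2) for the whole gene. At 1 wkpp the same contrast was 0.61 (SE 0.29, adjusted p = 0.11, DESeq2) and did not pass.

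*ANGPTL4*, the inhibitor of the lipase, was lowest before calving, where *LPL* was highest. Its derived exonic mean was 389 before calving, 1043 and 1421 in LE at 1 and 16 wkpp, and 1101 and 1014 in HE. All 4 groups after calving lay at 260.8% of that level or above, a direction that turns in HE when scaled to the spike-ins, to 19.3% at 1 wkpp and 35.5% at 16 wkpp. In the exon analysis the log2 fold change was -1.21 over LE 1 wkpp (SE 0.29, adjusted p = 0.00157, DESeq2) and -1.37 over HE 1 wkpp (SE 0.45, adjusted p = 0.00994, DESeq2). In the whole gene analysis the first had no p-value (-1.07, SE 0.37) and the second did not pass (-1.21, SE 0.56, adjusted p = 0.11, DESeq2), so *ANGPTL4* was not called. Between the diets it was at -0.06 at 1 wkpp (SE 0.39, adjusted p = 0.928, DESeq2) and 0.43 at 16 wkpp (SE 0.39, adjusted p = 0.434, DESeq2).

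The receptors changed less. *VLDLR*, which binds triglyceride-rich lipoproteins, had derived exonic means of 357 at -4 wkpp, 263 and 193 in LE, and 365 and 304 in HE at 1 and 16 wkpp. Its largest deposited difference was between the diets at 16 wkpp, with -0.64 for exons (SE 0.21, adjusted p = 0.0118, DESeq2) and -0.69 for the whole gene (SE 0.22, adjusted p = 0.0118, DESeq2), just outside the threshold in both analyses and of a sign that turns when scaled to the spike-ins. *CD36*, a fatty acid receptor of adipocytes, endothelium and macrophages, ranged from 13597 at -4 wkpp to 22081 in LE 1 wkpp for exons. Scaled to the spike-ins, *CD36* was lowest in HE 1 wkpp, at 7.41% of the level at -4 wkpp, and highest in LE 16 wkpp, at 287%. Its deposited log2 fold changes lay between -0.89 and 0.47 over the 6 comparisons and 2 analyses, and none passed (lowest adjusted p = 0.113, DESeq2).

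*SLC27A1*, a transporter with acyl-CoA synthetase activity, differed between the diets. Its derived exonic mean was 781 and 583 in HE at 1 and 16 wkpp, against 254 and 218 in LE and 215 before calving. Scaled to the spike-ins this order turns, with HE at 24.7% and 36.9% of the level at -4 wkpp and LE at 143% and 191%, and so do the signs of its values against HE. At 16 wkpp it was called lower in LE than in HE, by -1.38 (SE 0.21, adjusted p = 2.87e-09, DESeq2) for exons and -0.86 (SE 0.19, adjusted p = 9.25e-05, DESeq2) for the whole gene. At 1 wkpp the exonic value was -1.53 (SE 0.28, adjusted p = 2.64e-06, DESeq2), while the whole gene value of -0.72 (SE 0.25, adjusted p = 0.023, DESeq2) did not pass. Relative to HE 1 wkpp, the group before calving was at -1.80 for exons (SE 0.30, adjusted p = 2.61e-08, DESeq2) and -0.83 for the whole gene (SE 0.26, adjusted p = 0.012, DESeq2). Relative to LE 1 wkpp it was at -0.23 (SE 0.22, adjusted p = 0.773, DESeq2).

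The exonic differences of *SLC27A1* against HE were larger than those of the whole gene in all 3 comparisons. The whole gene count was 3.26 times the exonic count over the libraries of -4 wkpp and LE 1 wkpp, and 1.65 times over those of HE at 1 and 16 wkpp. Relative to exonic counts, whole gene counts were thus lower in HE. The size factors of the analyses are separate, so the ratios are of normalised counts.

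**Figure D3:**
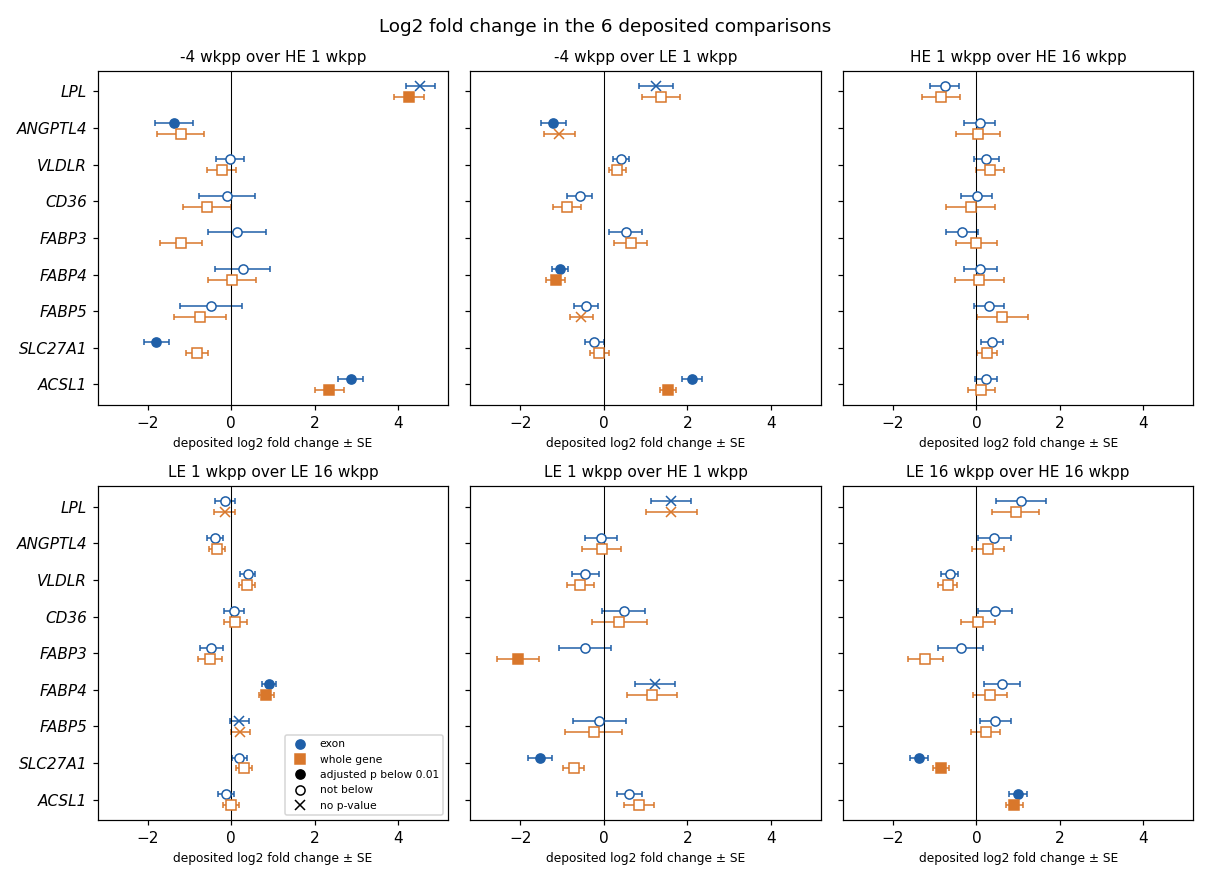
Deposited log2 fold change ± SE (horizontal axis) of the 9 genes in the 6 comparisons, from exons (circles) and whole genes (squares), relative to the other genes of the tables. Filled symbols had an adjusted p below 0.01 and crosses had no p-value; *ACSL1* is filled in both analyses of 3 comparisons, *FABP4* of 2 and *SLC27A1* of 1, and the 3 comparisons with HE on one side only had spike-in log2 ratios of -4.15 to -3.79 (exons).

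*FABP4*, the fatty acid binding protein of adipocytes, peaked in LE at 1 wkpp. Its derived exonic mean was 43475 there, against 19913 at -4 wkpp, 21583 in LE 16 wkpp, and 15794 and 13254 in HE. The group before calving was called lower than LE 1 wkpp, by -1.06 (SE 0.19, adjusted p = 3.38e-06, DESeq2) for exons and -1.16 (SE 0.23, adjusted p = 3.52e-05, DESeq2) for the whole gene. From 1 to 16 wkpp in LE it fell, with a log2 fold change of 1 over 16 wkpp of 0.90 (SE 0.16, adjusted p = 5.07e-05, DESeq2) and 0.84 (SE 0.17, adjusted p = 0.000936, DESeq2). Scaled to the spike-ins, the means of LE at 1 and 16 wkpp were 263% and 205% of that at -4 wkpp for exons, and 236% and 231% for the whole gene, so that little of the fall was left in the latter. In HE the same contrast was 0.10 (SE 0.39, adjusted p = 0.936, DESeq2). Between the diets at 1 wkpp, the exonic means differed 2.75-fold, the exonic fold change of 1.24 (SE 0.48) had no p-value, and the whole gene value of 1.15 (SE 0.61, adjusted p = 0.147, DESeq2) did not pass.

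*FABP5*, a binding protein also of macrophages and keratinocytes, ranged from 1974 in HE 16 wkpp to 3825 in HE 1 wkpp and passed no test. Scaled to the spike-ins, HE 1 wkpp was the lowest group for exonic *FABP5*, at 11.0% of the level at -4 wkpp, with HE 16 wkpp at 11.3%. For the whole gene HE 16 wkpp was lowest, at 10.3%, with HE 1 wkpp at 10.9%. In 3 of its 12 entries there was no p-value. *FABP3*, the binding protein of heart and skeletal muscle, was low in exons, with derived means between 6.57 in LE 1 wkpp and 19.95 in HE 16 wkpp. Scaled to the spike-ins, exonic *FABP3* was lowest in HE 1 wkpp, at 6.07% of the level at -4 wkpp, and highest in LE 16 wkpp, at 221%. Its whole gene means were 70.3 at -4 wkpp, 39.5 and 69.1 in LE, and 181 and 182 in HE. The whole gene count of *FABP3* was 5.34 to 12.7 times its exonic count, against a median of 1.68 to 1.89 over all genes. In LE over HE at 1 wkpp, the whole gene value of -2.05 (SE 0.51, adjusted p = 0.000705, DESeq2) passed, whereas the exonic value was -0.45 (SE 0.62, adjusted p = 0.646, DESeq2). The sign of the first turns when scaled to the spike-ins. The gap was not particular to *FABP3*: in HE 1 wkpp, *LIPC* was at 501 for the whole gene and 5.38 for exons, and *SLC27A2* at 149 and 4.69. Their whole gene values of LE over HE at 1 wkpp were -2.26 (SE 0.63, adjusted p = 0.00319, DESeq2) and -4.52 (SE 0.88, adjusted p = 9.72e-06, DESeq2). The spike-in log2 ratio beside them was -4.11. Whether the reads outside exons belong to transcripts of *FABP3* was not tested.

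Counted over the 9 genes, *ACSL1* alone was called between -4 wkpp and HE 1 wkpp, where 11.7% of all genes tested were called. *ACSL1* and *FABP4* were called between -4 wkpp and LE 1 wkpp, in opposite directions (2.33% of all genes). *FABP4* was called between LE at 1 and 16 wkpp (0.114% of all genes), and *ACSL1* and *SLC27A1* between the diets at 16 wkpp, again in opposite directions (12.7% of all genes). Of the 9 genes, 0 were called between HE at 1 and 16 wkpp (0.529% of all genes), where 1 had an unadjusted p below 0.05 for exons (DESeq2) and 0 for the whole gene. Between the diets at 1 wkpp 0 were called as well (7.43% of all genes), and 2 had an unadjusted p below 0.05 for exons (DESeq2) and 3 for the whole gene. The share of all genes under that limit was not taken. A gene without an adjusted p-value in both analyses could not be called. This held for *LPL* between -4 wkpp and HE 1 wkpp, and for *LPL*, *ANGPTL4* and *FABP5* between -4 wkpp and LE 1 wkpp. From 1 to 16 wkpp it held for *FABP3* in HE and for *LPL*, *FABP3* and *FABP5* in LE. Between the diets at 1 wkpp it held for *LPL* and *FABP4*. A count of 1 or 2 of 9 genes was read as near the background where 11.7% and 12.7% of all genes were called. Between -4 wkpp and HE 1 wkpp, 3 of the 9 genes passed for exons alone (22.6% of all genes) and 2 for the whole gene alone (12.9%). Between the diets at 1 wkpp, 1 passed for exons alone (14.1% of all genes) and 1 for the whole gene alone (15.2%). At an adjusted p under 0.05 in both analyses (DESeq2), 2 of the 9 passed in the first of these comparisons (18.1% of all genes) and 1 in the other (14.9%). The median exonic log2 fold change of the 9 genes lay between -0.23 and 0.44 over the 6 comparisons, and that of all genes between -0.10 and 0.08.

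Whether the change from 1 to 16 wkpp differed between the diets was tested as the difference of the log2 fold changes in LE and HE, which share no library. *FABP5* had no p-value in either analysis and *LPL* none for the whole gene, so that 7 of the 9 genes could be called. None of the genes tested passed in either analysis, and of all genes 0.00874% were called (Wald test, adjusted over all genes). *FABP4* came closest, with a difference of 0.81 (SE 0.42, adjusted p = 0.955) for exons and 0.78 (SE 0.61, adjusted p = 0.736) for the whole gene. Its unadjusted exonic p by this Wald test across all genes was 0.0541. *LPL* was at 0.60 (SE 0.42, adjusted p = 0.978) and *ACSL1* at -0.36 (SE 0.33, adjusted p = 0.982), so its contrast between the diets was not shown to differ between 1 and 16 wkpp. The change from -4 to 1 wkpp could not be compared between the diets in this way, because the libraries at -4 wkpp were shared.

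The wider pathway list held 46 other genes of lipase handling and fatty acid uptake, of which 35 were in the tables and 20 to 24 had an adjusted p-value in both analyses of a comparison. *DBI*, which binds acyl-CoA esters, was called higher before calving than in HE 1 wkpp (2.66, SE 0.30, adjusted p = 2.33e-17, DESeq2) and LE 1 wkpp (1.76, SE 0.26, adjusted p = 2.33e-09, DESeq2). *SEL1L*, which helps LPL to leave the endoplasmic reticulum, was called higher in LE than in HE at 1 wkpp (0.84, SE 0.21, adjusted p = 0.00108, DESeq2).

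At 16 wkpp, 3 of 24 genes of the list were called between the diets (12.5%, against 12.7% of all genes), a share near the background. *MSR1*, the macrophage scavenger receptor, was higher in LE (2.77, SE 0.34, adjusted p = 7.45e-14, DESeq2). *SDC1*, a heparan sulfate proteoglycan that binds lipoproteins, was lower (-1.44, SE 0.34, adjusted p = 0.000253, DESeq2), and so was the nuclear receptor *RXRA* (-0.65, SE 0.21, adjusted p = 0.00958, DESeq2), directions that turn when scaled to the spike-ins. Called genes were 1 of 22, 2 of 21, 0 of 20, 0 of 21 and 1 of 23 in the other comparisons, in the order -4 wkpp over HE, -4 wkpp over LE, HE in time, LE in time and the diets at 1 wkpp, where 11.7%, 2.33%, 0.529%, 0.114% and 7.43% of all genes were called. For HE in time and LE in time, 0 were called by DESeq2.

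PPAR transcription factors act on *LPL*, *ANGPTL4*, *FABP4* and *ACSL1*, all of which are textbook targets. *PPARG*, the PPAR of adipocytes, had derived exonic means of 389.9 at -4 wkpp, 372 and 314 in LE, and 329 and 229 in HE. Its 6 exonic fold changes lay between 0.07 and 0.42 and none passed (lowest adjusted p = 0.34, DESeq2), and it had no whole gene values. *PPARD* was at -1.49 in -4 wkpp over HE 1 wkpp for exons (SE 0.26, adjusted p = 1.6e-07, DESeq2), at -1.302 in LE over HE at 1 wkpp and at -1.32 at 16 wkpp, which turn when scaled to the spike-ins. In the whole gene analysis the first 2 had no adjusted p-value and the third did not pass (-0.44, SE 0.20, adjusted p = 0.102, DESeq2). *PPARA* passed no test (lowest adjusted p = 0.229, DESeq2).

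The label of adipose tissue was checked with adipocyte markers, of which 6 of 7 were in the tables. The lipid droplet proteins *PLIN1* and *CIDEC* had derived exonic means of 14698 and 7090.3 at -4 wkpp. The summed adipocyte markers were 29608 at -4 wkpp, 36429 and 23064 in LE at 1 and 16 wkpp, and 19314 and 15218 in HE. *CIDEC* was called lower in HE than in each group it was compared with outside HE, and *PLIN1* in HE than in LE at 1 wkpp (1.37, SE 0.25, adjusted p = 3.38e-06, DESeq2). *PLIN1* held the largest part of these sums, and single markers differed. At 16 wkpp, 2 of the 6 had a positive exonic log2 fold change of LE over HE and 4 a negative one (median -0.19, all genes 0.0045), and 1 was called (*CIDEC*, higher in LE). In -4 wkpp over LE 1 wkpp, 3 were positive and 3 negative, with *CIDEA* and *LEP* called higher before calving and *LIPE* called lower. The part of adipocyte content in the values of *LPL* and *FABP4* was not tested.

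Other cell types also moved with the groups. The 8 blood endothelium markers summed to 22958 at -4 wkpp, 36059 and 25722 in LE, and 47206 and 29711 in HE. Scaled to the spike-ins this order turns, with HE at 14.0% and 17.6% of the sum at -4 wkpp and LE at 189% and 211%. *VWF* held 26066 and 17329.5 of the sums in HE, and at 16 wkpp 5 of the 8 had a positive exonic log2 fold change of LE over HE and 3 a negative one. The 5 macrophage markers in the tables, of 7, summed to 5757 at -4 wkpp, 9499 and 11962 in LE, and 4324 and 2027 in HE, and *CD36*, *FABP5* and *MSR1* are also expressed by macrophages. The 9 skeletal muscle markers summed to 2239 and 2798 in HE, against 232 to 305 in the other groups. Scaled to the spike-ins, the sum in HE was 61.4% and 154% of that at -4 wkpp, and in LE 113% and 232%, so that the excess in HE turned at 1 wkpp and against LE. *TNNT3* held 2112 and 2760.3 of the sums in HE, and the sum without it was 126 and 37.6 in HE and 17.5 to 44.4 elsewhere. In HE 1 wkpp, the exonic means of *MYH1*, *ACTA1*, *MYH7* and *MYH2* were 31.9, 30.8, 25.3 and 17.2, against 7.16 or less in LE 1 wkpp. All 9 markers were negative in LE over HE at 1 wkpp (exons), and *MYH2* and *TNNT3* were called. By the ratios of the exonic means, the signs of *TNNT3*, *MYH7*, *CKM*, *MB*, *TNNT1* and *TNNI2* turn when scaled to the spike-ins. Those of *MYH1*, *MYH2* and *ACTA1* do not. The creatine kinase gene *CKM* was at 0.338 to 2.45 for exons in the 5 groups and at 14.7 for the whole gene in HE 1 wkpp. *FABP3* (whole gene) and *SLC27A1*, which muscle also expresses, had higher means in HE relative to the other genes, as *TNNT3* had. The exonic sum of the other muscle markers was 284% of that at -4 wkpp in HE 1 wkpp, but 84.5% in HE 16 wkpp. In LE it was 41.8% and 39.4%. The part of muscle in the values of *FABP3* and *SLC27A1* was not tested.

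**Figure D4:**
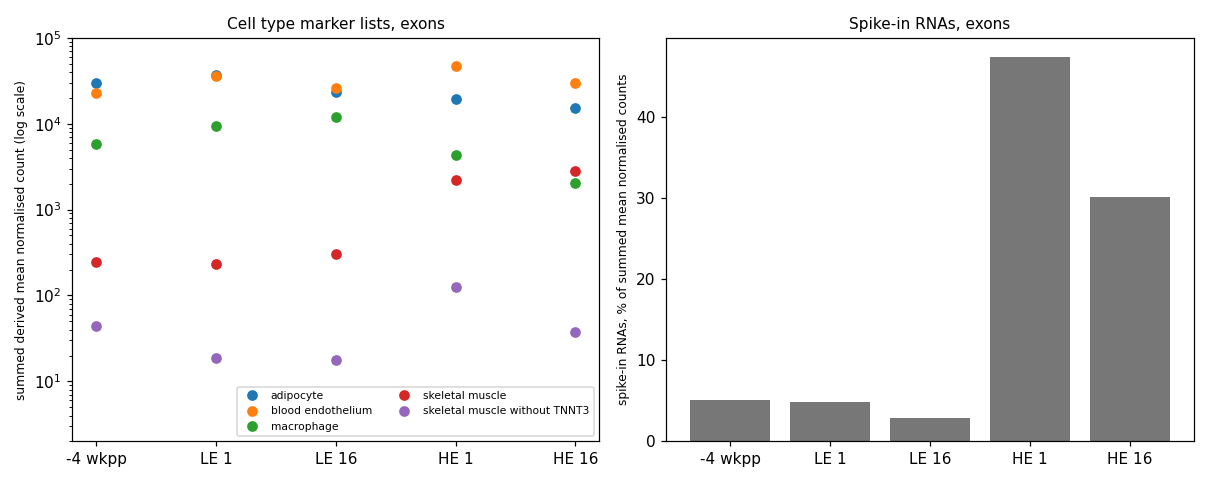
Left, summed derived mean normalised count of cell type marker lists (exons, log axis) by group, relative to the other genes of the tables; right, share of spike-in RNAs in all summed exonic mean normalised counts (%). Points and bars are 1 value per group of 3 libraries without error; adipocyte markers go from 29608 at -4 wkpp to 19314 in HE 1 wkpp, and the spike-in share from 5.08% to 47.4%.

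Markers of skin and blood were low, though some were called. *KRT31* and *KRT85* were higher at -4 wkpp than in LE 1 wkpp, and *KRT5* was lower in LE than in HE at 1 wkpp. *HBB* was lower in LE than in HE at 16 wkpp, a direction that turns when scaled to the spike-ins. Keratinocyte markers summed to 401 at -4 wkpp, mostly *KRT31* and *KRT85* of hair, to 109 and 23.2 in HE, and to 4.91 and 4.35 in LE. Erythrocyte markers summed to 198 at -4 wkpp and 11.8 to 136 later for exons, while the whole gene sum was 212 at -4 wkpp and 260.1 in HE 1 wkpp. Mammary epithelium markers summed to 16.4 to 65.1, mostly *KRT18*, and the milk protein genes *LALBA* and *CSN1S1* were at most at 6.68 for exons in every group and at 11.1 and 27.8 for the whole gene in HE 1 wkpp. *CSN3*, of the same class, was at 30.0 there, and its whole gene log2 fold change of LE over HE at 1 wkpp was -3.65 (SE 1.01, adjusted p = 0.0029, DESeq2), beside a spike-in log2 ratio of -4.11. Of each list, 5 of 6, 4 of 4 and 4 of 5 genes were in the tables.

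The genes most like *LPL* over the 6 whole gene log2 fold changes, by Euclidean distance among 7836 genes with a mean count of at least 100, were *TF* (0.92), *COL3A1* (0.98), *ASPN* (0.99), *FN1* (1.11) and *LRRC17* (1.28), where the median distance was 4.85. *TF* encodes transferrin, while *COL3A1*, *ASPN* and *FN1* encode proteins of the extracellular matrix. *COL3A1* was at 3.51 in -4 wkpp over HE 1 wkpp and at 1.08 over LE 1 wkpp, where *LPL* was at 4.25 and 1.36. The genes most like *ANGPTL4* were *CNKSR3* (0.67), *SOCS2* (0.70), *C1H21orf2* (0.76), *RENBP* (0.76) and *CYGB* (0.77), with a median distance of 1.95. The 6 comparisons share libraries, so the distances are descriptive.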

How the data were processed

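RNA of 15 libraries was sequenced by the authors, trimmed with Cutadapt 1.3, aligned with TopHat2 to bosTau8 and counted per gene with HTSeq. The authors deposited 6 tables of DESeq2 results, each of 3 libraries against 3, with no column of other samples (0 columns). The log2 fold changes, shrunken towards 0, their SE and the p-values (Wald test) were made by the authors with DESeq2 and deposited for exons and whole genes. The tables hold results and no counts per library, so these values were read as deposited and no count test was run. In the tables, depth shows only in the size factors, which were recovered from genes with 1 read in 1 library and lay between 0.314 and 1.17 in HE (1 library of each group at 1.05 or above, the others at 0.465 or below) and between 1.34 and 2.35 in the other groups in tables that hold both. Reads and alignment rates per library, given elsewhere by the study, were not used here. In that list, every library of the moderate group aligned at a lower rate than every other library. This difference cannot be told apart from the contrasts against HE.

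Each mean count was written as a table scale times the average of 2 group means, scales were linked through the size factors of shared libraries, and the 5 group means were solved by non-negative least squares (median misfit 0.0276% for exons, 0.0429% for whole genes). That misfit does not test the scale between the 2 tables with the libraries at -4 wkpp, so ranges were taken over 19683 combinations of scales. Recovery of the means and the test of the difference were tested on simulated data.

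The genes and lists were chosen with earlier results of these data known. Genes named beyond the list were the called genes of the pathway list, its transcription factors, markers of the cell type lists, and the 5 genes nearest to *LPL* and to *ANGPTL4*. *LIPC* and *SLC27A2* of the pathway list were named after the data were seen. Some results under this rule are left out of the text. Alternatives were either analysis alone, a threshold of 0.05, filters on mean counts and, chosen after seeing the data, ratios of the derived means, muscle markers without *TNNT3* and spike-in scaling. The symbols were matched to RefSeq (ARS-UCD2.0) for gene order alone. Scripts ran under Python 3.11.15 with pandas 2.3.3, scipy 1.17.1, matplotlib 3.10.9 and numpy 2.4.6.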

Additional observations from a re-analysis of the deposited data

Results flagged for a closer look

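The spike-in RNAs enter no comparison between the genes. Their derived exonic total, relative to that of the libraries at -4 wkpp, was 14.7 in HE 1 wkpp and 7.35 in HE 16 wkpp. In LE it was 0.83 at 1 wkpp and 0.53 at 16 wkpp. Scaling to them would turn the sign of the log2 ratio of 5 of the 9 genes in -4 wkpp over HE 1 wkpp, of 0 in -4 wkpp over LE 1 wkpp, and of 3 to 7 in the other 4 comparisons (exons).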

How the results depend on the processing

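Between -4 wkpp and HE 1 wkpp, the exon analysis alone called 3 genes (*ANGPTL4*, *SLC27A1* and *ACSL1*), the whole gene analysis alone 2 (*LPL* and *ACSL1*), and a threshold of 0.05 in both 2 (18.1% of all genes), instead of 1. Between the diets at 1 wkpp, the exon analysis alone called 1 (*SLC27A1*), the whole gene analysis alone 1 (*FABP3*) and the threshold of 0.05 called 1 (*SLC27A1*, where 14.9% of all genes were called), instead of 0. In the other results these settings kept the count within 1.5 times, as did the filters on mean counts in all results for which they were run. The sign differed between exons and whole genes for *FABP3* in -4 wkpp over HE 1 wkpp (0.14 and -1.20) and in HE in time (-0.34 and 0.00074), and for *CD36* in HE in time (0.0044 and -0.14). None of these had passed in both analyses. The log2 ratio of the derived means departed from the deposited value by more than its SE in 6 of 54 cases, all in 3 genes: *LPL*, *FABP3* and *FABP5*. The sum of the log2 fold changes of *LPL* from -4 wkpp to HE 1 wkpp by way of LE 1 wkpp was 2.87, against 4.53 directly. The cause was not tested. No paired analysis was possible because the tables hold no value of single libraries and the labels give no number that ties libraries to animals. For the same reason no library could be left out.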

Other observations

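*FABP4* and *FABP5* lie beside *PMP2* and *FABP9* in the RefSeq annotation of cattle. *PMP2*, the binding protein of myelin, had derived exonic means of 109 at -4 wkpp, 166 and 58.9 in LE at 1 and 16 wkpp, and 114 and 26.1 in HE. *FABP9* lay between 3.55 and 13.4. These genes were looked up for their position after the values of *FABP4* were seen, and no test was made.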
